A study of Ovis aries with 7 samples.

Results

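The 39 genes described here encode subunits of the proteasome, its assembly factors and its activators. They are the features of the deposited tables whose symbol starts with PSMA, PSMB, PSMC, PSMD or PSME followed by a digit, with PSMC3IP, which encodes no subunit, left out. They made up 39 of 26479 features, and the nuclei kept held 262055 of their UMIs (unique molecular identifiers, which count captured transcripts). PSMA2, PSMB9, PSMD10 and PSMD14 were not matched by symbol and were not analysed here.

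The data were single nuclei RNA-seq libraries from frozen anterior striatum of sheep aged 5 years. Striatum is the forebrain region that loses most neurons in Huntington's disease. The OVT73 sheep are a single transgenic line that carries a full-length human HTT cDNA with an expanded polyglutamine tract under upstream human HTT sequence, and the control sheep are not transgenic. There were 3 OVT73 libraries and 4 control libraries, made from 6 sheep per group. Each library pooled nuclei of 2 sheep, except control 1 and control 2 with 1 sheep each, and the sheep of a pool were not separated here. The library is therefore the replicate throughout, and the spread between libraries mixes sheep and library preparation.

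The proteasome is the large protease that degrades ubiquitin-tagged proteins in the cytosol and nucleus of every cell. Its 20S core is a barrel of alpha rings (PSMA genes), which gate the entrance, and beta rings (PSMB genes), which hold the cutting sites. The 19S cap binds and unfolds substrates with a base of ATPases (PSMC genes) and non-ATPase subunits, and a lid (PSMD genes) that removes ubiquitin. In cells exposed to interferon, the cutting subunits PSMB5, PSMB6 and PSMB7 can be replaced by PSMB8, PSMB9 and PSMB10, which yields the immunoproteasome that favours peptides for antigen presentation. The PSME genes encode activators that open the core without the 19S cap. Impaired clearance of mutant huntingtin by this system has long been studied in Huntington's disease.

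From 32602 nuclei, 31 clusters were drawn without using the proteasome genes, and 15 of them were given a class from marker genes. Each name below stands for "nuclei like" that cell type. The 9 classes with at least 10 nuclei in every library were oligodendrocytes (15118 nuclei), oligodendrocyte precursors or OPCs (2906), microglia (2780), astrocytes (1592), neuroblasts (1350), D1 medium spiny neurons or D1 MSNs (2540), D2 MSNs (1930), eccentric MSNs (316) and PV/Th interneurons (400). MBP, ALDH1L1, SOX11, DRD1 and CASZ1 were markers not matched by symbol, so the D1 name rests on genes such as TAC1 and EBF1. The 16 unnamed clusters held 10.5% of nuclei. Libraries held 3102 to 8341 nuclei and 19305217 to 65987104 UMIs after filtering, and any pair of libraries shared 2 to 20 cell barcodes. The added human HTT feature reached 0.961 to 4.88 UMIs per 1000000 UMIs (CPM) in the OVT73 libraries and 0.0475 to 0.236 CPM in the control libraries. Libraries were aligned by a Harmony correction before clustering. OVT73 2 still stood apart from the other libraries in its clusters, and in the levels of some members given further on. In it, 99.1% of the oligodendrocytes fell in 1 of the 4 oligodendrocyte clusters, which held 7.9% to 22.6% of those of the other libraries.

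Summed over the 39 genes, proteasome transcripts took up 1222 ± 93.5 CPM of a library (mean ± SD, n = 7 libraries), that is 0.122% of UMIs. The sum was highest in microglia (1770 ± 82.1 CPM) and lowest in D2 MSNs (1075 ± 81.2 CPM). Astrocytes (1609 ± 82.0 CPM), neuroblasts (1524 ± 229 CPM), oligodendrocytes (1498 ± 84.3 CPM) and PV/Th interneurons (1430 ± 137 CPM) followed microglia. The oligodendrocyte value mixes clusters, of which 1 measured 1299 to 1464 CPM over libraries and another 1615 to 1874 CPM. The latter held 0.451% of the oligodendrocytes of OVT73 2 and 52.9% of those of control 4. Eccentric MSNs (1277 ± 121 CPM), OPCs (1231 ± 78.2 CPM) and D1 MSNs (1080 ± 87.5 CPM) stood above D2 MSNs. Microglia exceeded astrocytes in 7 of 7 libraries and OPCs exceeded D1 MSNs in 7 of 7, while eccentric MSNs exceeded OPCs in 5 of 7, and the ranges over libraries overlapped between every pair of neighbours in this order. D1 MSNs exceeded D2 MSNs in 6 of 7 libraries, and their means differed by less than the spread between libraries. A single gene, PSME4, gave 282 CPM of the eccentric MSN sum, 226 CPM of the astrocyte sum and 72.4 CPM of the D1 MSN sum. The place of eccentric MSNs above OPCs and D1 MSNs therefore leans on PSME4, and the order without it was not computed. Clusters were drawn from the same nuclei, so levels by class are descriptions with no test.

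**Figure D1:**
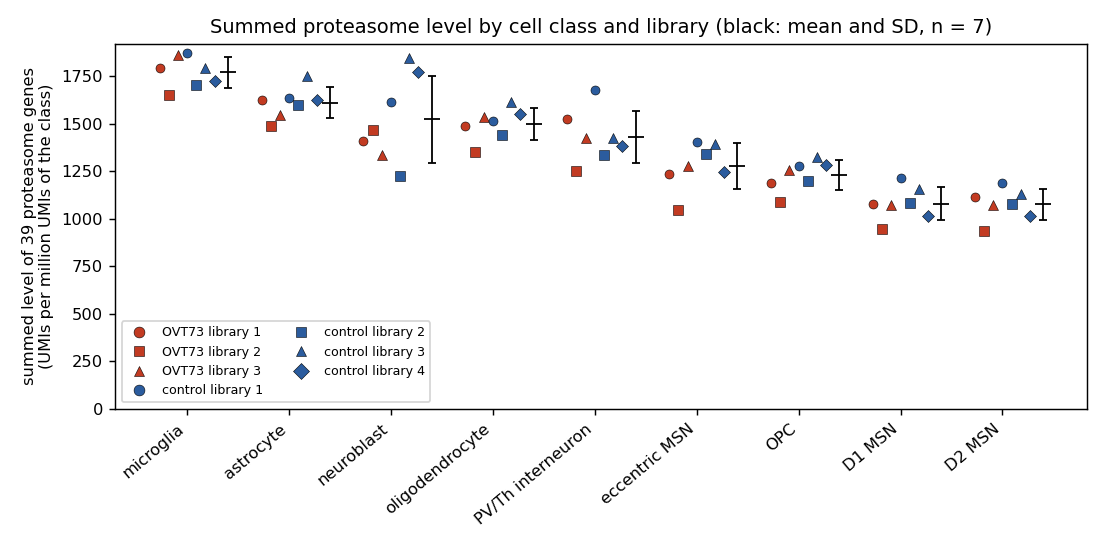
Summed level of the 39 proteasome genes in CPM (y axis) in each of 9 cell classes (x axis), 1 point per library, OVT73 and control in different colours, with the mean and SD over 7 libraries in black. Microglia sit at 1650 to 1872 CPM and D1 MSNs at 945 to 1212 CPM, and OVT73 2 is the lowest library in 8 of the 9 classes. The CPM carry no library scaling.

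CPM is a share of a nucleus's transcripts, and the classes differed in how many transcripts a nucleus gave. A D1 MSN nucleus held 26040 ± 4792 UMIs on average, of which 28.1 ± 5.35 were proteasome UMIs, while a microglial nucleus held 1514 ± 167 UMIs with 2.69 ± 0.386 proteasome UMIs (n = 7 libraries). Per nucleus, the order of these classes was thus the reverse of that in CPM. The difference from other genes was measured against oligodendrocytes on a log2(CPM + 1) scale, over 38 members and 15263 genes with at least 100 UMIs. In D1 MSNs the median member was 0.49 lower, against 0.08 lower for the median of all genes, and 33 of 38 members were lower, against 53.6% of all genes. The medians were -0.55 for members and -0.09 for all genes in D2 MSNs, and -0.69 and -0.18 in eccentric MSNs. In microglia the median member was 0.27 higher and the median of all genes 0.11 higher. Lower members were not limited to MSNs. In OPCs the medians were -0.34 for members and -0.02 for all genes, and 29 of 38 members were lower, against 51.5% of all genes. PV/Th interneurons, which are neurons too, were near oligodendrocytes (0.09 for members, 0.08 for all genes). So were astrocytes (0.04 and 0.06) and neuroblasts (-0.05 and -0.12).

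Other housekeeping lists showed the same order between D1 MSNs and oligodendrocytes. In D1 MSNs the median of 44 cytosolic ribosomal protein genes was 0.90 lower than in oligodendrocytes, that of 60 nuclear oxidative phosphorylation genes 0.52 lower, and that of 5 ubiquitin and ubiquitin-activating genes 0.90 lower. In microglia the ribosomal median was 0.74 higher. The part of depth per nucleus and of RNA quality in the order of the classes was not tested.

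Ordered by role, the alpha ring showed the lowest median in D1 MSNs among the sub-assemblies with more than 1 member. All 6 alpha ring genes measured had a lower mean in D1 MSNs than in oligodendrocytes (median -0.94), as did the 4 structural beta ring genes (-0.61), the 6 ATPases of the base (-0.59) and the 3 other base subunits (-0.78). PSMA6, the member with the most UMIs (36333), was highest in oligodendrocytes in 7 of 7 libraries. It measured 265, 260 and 273 CPM in OVT73 1 to 3 and 269, 230, 240 and 238 CPM in control 1 to 4. In D1 MSNs it measured 128 to 153 CPM, with no overlap with oligodendrocytes.

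Relative to D1 MSNs, 22 members were higher in oligodendrocytes in 7 of 7 libraries and 4 were lower in 7 of 7. Those 4 were PSMA8, the testis alpha subunit, PSMB7, the core subunit with trypsin-like activity, PSMD13 of the lid, and PSMD5, a chaperone of base assembly. PSMB7 reached 106 ± 6.90 CPM in D1 MSNs and 87.9 ± 6.46 CPM in oligodendrocytes, so 1 of the 3 standard cutting subunits went against the general order. PSMB5, with chymotrypsin-like activity, measured 10.6 ± 2.34 CPM in D1 MSNs, 25.7 ± 6.47 CPM in microglia and 22.2 ± 6.66 CPM in PV/Th interneurons. PSMB6, with caspase-like activity, measured 5.96 ± 1.47 CPM in D1 MSNs, 16.1 ± 3.28 CPM in oligodendrocytes and 18.9 ± 5.58 CPM in PV/Th interneurons.

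By class means, 20 members were highest in microglia, 7 in neuroblasts, 6 in PV/Th interneurons and 3 in oligodendrocytes. Many of these ranks changed between libraries. Of the members highest in microglia, PSMB8, PSMB3 and PSMB4 alone were so in 7 of 7 libraries, and PSMC4 was in 1 of 7. Several neuroblast means rest on few UMIs, such as 13 for PSMD3 (11.8 ± 15.0 CPM). The lowest mean was in D2 MSNs for 11 members, in eccentric MSNs for 10 and in D1 MSNs for 7. Between D1 and D2 MSNs only PSMA8 kept 1 order in 7 of 7 libraries. The share of all genes that kept 1 order in 7 of 7 libraries was not computed for any pair of classes. Nor was the share of all genes with their highest or lowest mean in each class. Such counts, here and elsewhere, are therefore descriptions of the members with no background beside them.

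**Figure D2:**
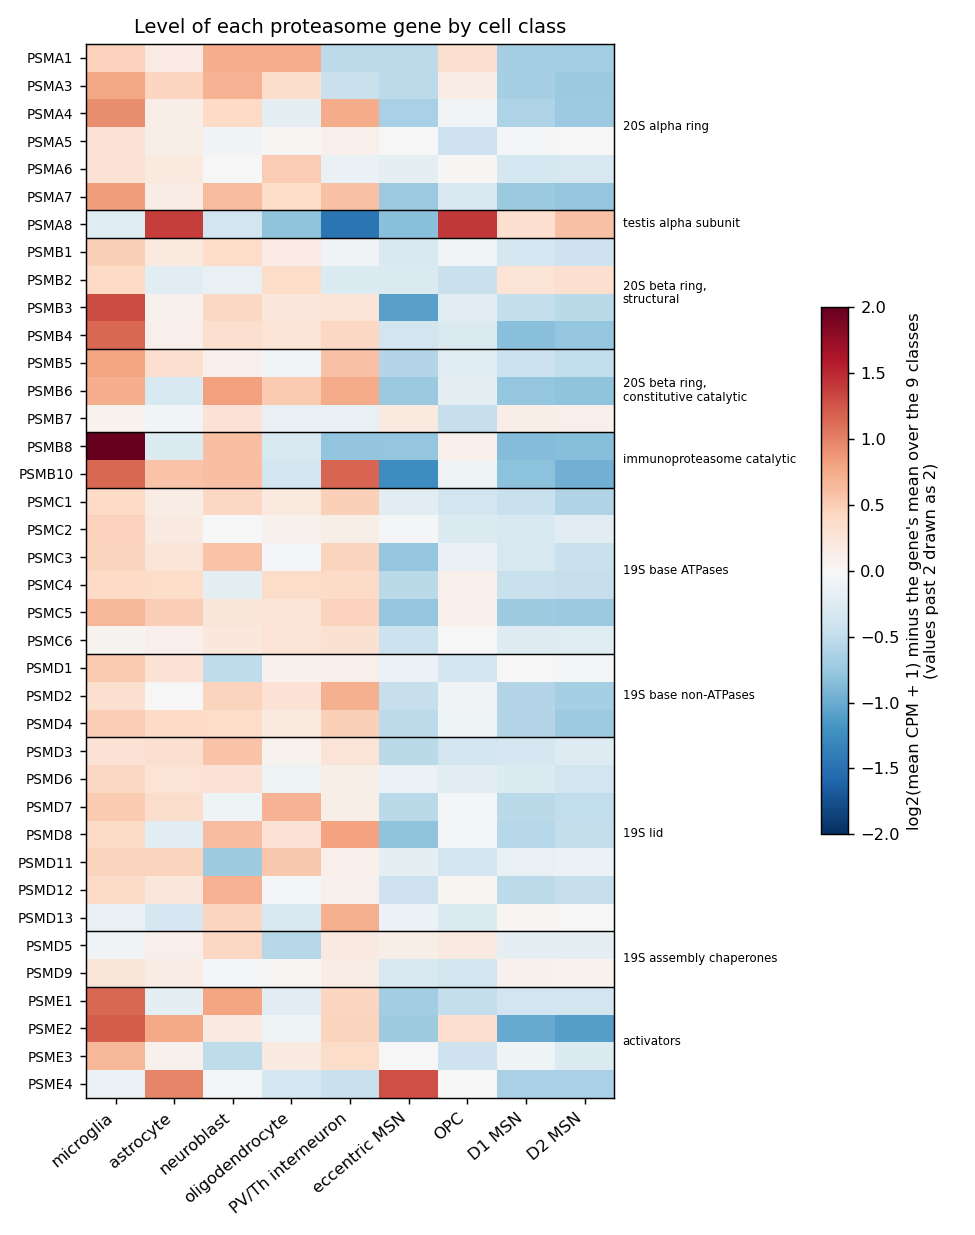
Heat map of 38 proteasome genes (rows, grouped by sub-assembly; PSMB11 is not drawn) over 9 cell classes (columns). Colour gives log2(mean CPM + 1) over 7 libraries minus the gene's own mean over the classes, red for higher and blue for lower, with values past 2 drawn as 2, so rows can be read along but not against each other. Most rows are blue in the MSN columns and red in the microglia column, with PSME4, PSMA8 and PSMB7 among the exceptions.

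The immunoproteasome gene PSMB8 was concentrated in microglia. Of its 158 UMIs, 71 (44.9%) came from microglia, a class with 1.98% of all UMIs. Its level in microglia was 18.3, 20.5 and 14.7 CPM in OVT73 1 to 3 and 11.1, 8.23, 28.1 and 11.6 CPM in control 1 to 4. Microglia were the highest of the 9 classes in 7 of 7 libraries, and their range did not overlap that of any other of the 9. The OVT73 and control libraries overlapped. Some unnamed clusters, pooled over libraries, lay inside the microglial range. Those led by TOP2A, SLC1A2 and CALCR, with 139, 179 and 144 nuclei, measured 10.7, 10.1 and 8.29 CPM. The other larger unnamed clusters measured at most 2.53 CPM. Pooled over libraries the microglial level was 16.5 CPM (95% exact Poisson interval 12.9 to 20.8), against 0.0729 CPM (0.0237 to 0.170) in D1 MSNs, where 5 UMIs were found in 2540 nuclei. These intervals cover counting error only. The 102 macrophage nuclei held 3 UMIs, or 19.2 CPM (3.96 to 56.1).

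PSMB10, the other immunoproteasome subunit measured, had a different distribution. It reached 12.98 CPM (10.4 to 16.0) in PV/Th interneurons and 12.5 CPM (9.42 to 16.4) in microglia, and 2.40 CPM (2.05 to 2.80) in D1 MSNs, pooled over libraries. In PV/Th interneurons the libraries spread from 7.06 to 21.4 CPM, so their order with microglia (10.2 to 16.7 CPM) was within the spread. PSME1 and PSME2, which form the interferon-inducible activator, were both highest in microglia by class mean. Microglia were highest in 5 of 7 libraries for PSME1 and in 3 of 7 for PSME2, from 28 UMIs. Neuroblasts came next for PSME1 (23.9 CPM) and astrocytes for PSME2 (4.53 CPM), with overlapping ranges. PSME1 measured 30.8 ± 6.86 CPM there and 10.0 ± 1.45 CPM in D1 MSNs, and PSME2 measured 6.54 ± 2.53 CPM and 0.616 ± 0.330 CPM. The 18 genes listed for interferon response and antigen presentation had a summed level of 504 to 990 CPM in microglia and 59.8 to 96.6 CPM in D1 MSNs. Against oligodendrocytes, on the log2(CPM + 1) scale, the median of this list was 1.71 higher in microglia. It was also 0.98 higher in astrocytes and 0.56 higher in OPCs. In the RefSeq annotation of ARS-UI_Ramb_v3.0, PSMB8 lies between TAP2 and TAP1, which encode the peptide transporter of antigen presentation. PSMB11, the thymus subunit, had 1 UMI in the whole series.

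PSME4 encodes a large nuclear activator that works without ubiquitin, and its highest class mean was in eccentric MSNs. In eccentric MSNs it measured 295, 171 and 338 CPM in OVT73 1 to 3 and 315, 345, 241 and 270 CPM in control 1 to 4. D1 MSNs measured 60.9 to 84.3 CPM, below every eccentric MSN library, although both are striatal projection neurons. Astrocytes came next at 226 ± 26.1 CPM, and eccentric MSNs were the highest class in 6 of 7 libraries. The exception was OVT73 2, the lowest of the eccentric MSN values. Relative to D1 MSNs, PSMA8, PSMB3 and PSMC3 were lower in eccentric MSNs in 7 of 7 libraries, and PSME4 alone was higher in 7 of 7.

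Among members with at least 100 UMIs in their highest class, which leaves out PSMB8 and PSME2 with their larger ratios, PSMA8 had the largest ratio between highest and lowest class mean (9.25), with 29.5 ± 8.97 CPM in OPCs, 29.2 ± 11.5 CPM in astrocytes and 3.19 ± 2.04 CPM in PV/Th interneurons. It was also higher in D2 MSNs (16.3 ± 6.01 CPM) than in D1 MSNs (13.5 ± 4.24 CPM) in 7 of 7 libraries. Its annotated gene overlaps SS18 in ARS-UI_Ramb_v3.0. The strands of the genes were not compared. Whether reads from SS18 were counted for PSMA8 was therefore not tested, and the PSMA8 values are uncertain. In that annotation 10 of the 39 members overlap another gene, among them PSMA3, PSMB5, PSMC1 and PSME1. PSMB3 and PSMB4, structural beta subunits, were highest in microglia in 7 of 7 libraries. PSMB3 measured 32.3 ± 5.30 CPM there and 5.41 ± 1.93 CPM in eccentric MSNs, and PSMB4 measured 41.0 ± 11.2 CPM there and 9.67 ± 2.58 CPM in D1 MSNs.

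**Figure D3:**
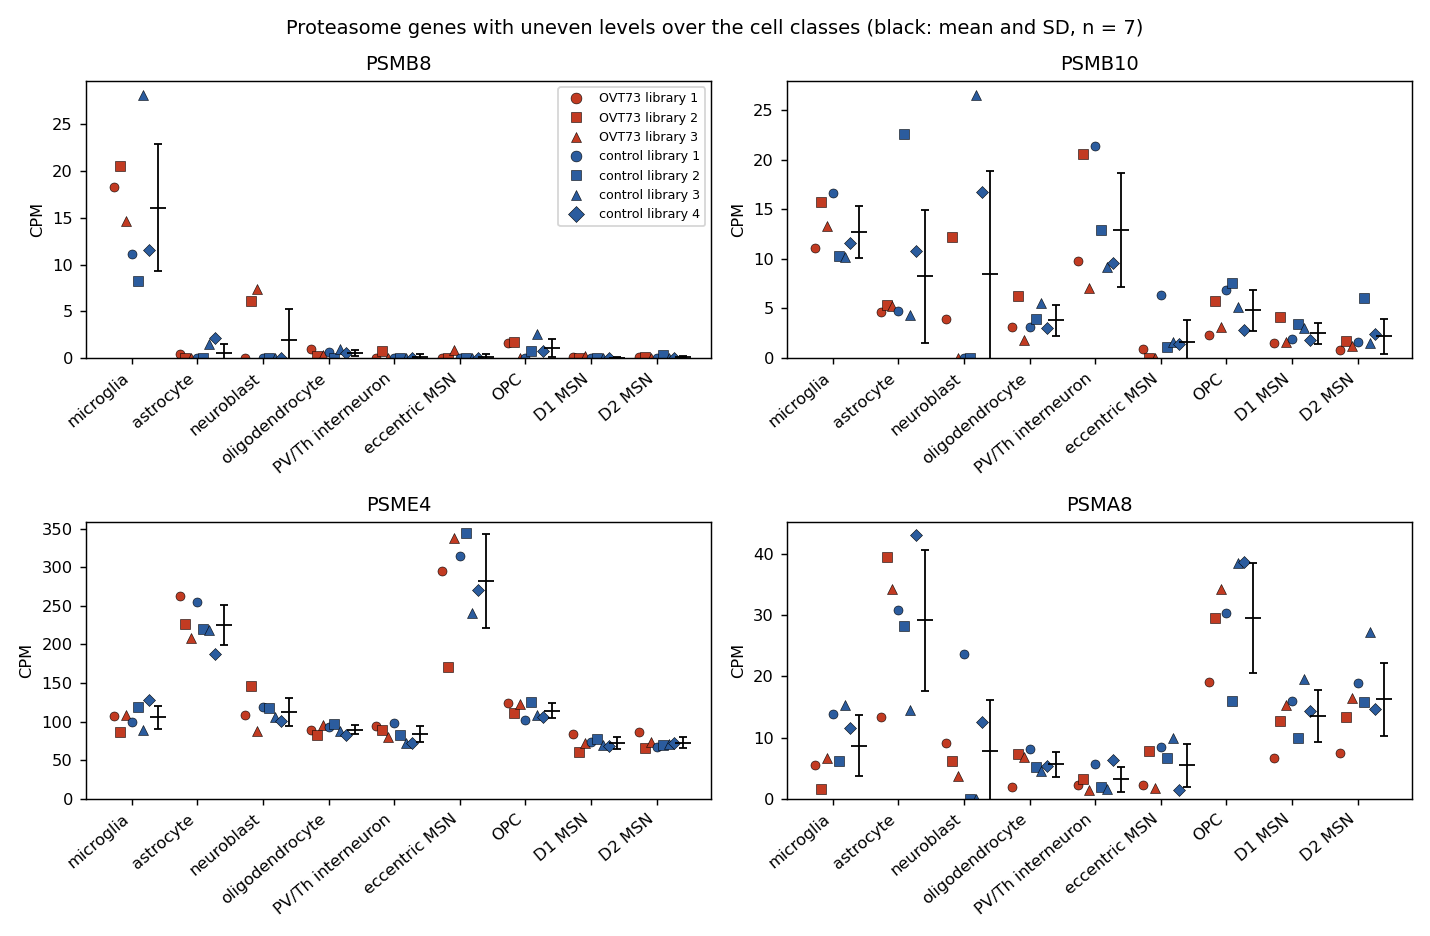
Levels in CPM (y axes) of PSMB8, PSMB10, PSME4 and PSMA8 in 9 cell classes (x axes), 1 point per library coloured by group, with the mean and SD over 7 libraries in black. PSMB8 stands at 8.23 to 28.1 CPM in microglia with every other class mean below 2 CPM, and PSME4 stands at 171 to 345 CPM in eccentric MSNs.

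The stability of the members over libraries was read from all nuclei of each library. Over 34 members with at least 1000 UMIs the median coefficient of variation was 13.7%, against 14.6% over 10014 genes at that depth. PSMB7 was the steadiest at 2.65%, with 94.7 to 103 CPM over 7 libraries. PSMD8 (30.4%), PSMA8 (28.1%), PSMD7 (24.8%), PSMA1 (23.4%) and PSMC6 (22.9%) varied most.

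PSMC6, an ATPase of the base, carried a library pattern. It measured 93.4, 56.1 and 118 CPM in OVT73 1 to 3 and 128, 95.7, 108 and 102 CPM in control 1 to 4. OVT73 2 was its lowest library in 7 of 9 classes, with 53.9 CPM in D1 MSNs where the other libraries measured 81.9 to 117 CPM. PSMD7, a lid subunit that pairs with the deubiquitinase of the cap, was likewise lowest in OVT73 2 in 6 of 9 classes. Within the single oligodendrocyte cluster that held nearly all OVT73 2 oligodendrocytes, PSMC6 stood at 72.2 CPM in OVT73 2 and at 136 to 191 CPM in the other 6 libraries. That cluster held 7.9% to 22.6% of the oligodendrocytes of those 6, so it may not compare like nuclei. In the remaining oligodendrocyte clusters those 6 measured 92.4 to 124, 116 to 160 and 143 to 184 CPM. The summed level of all members was lowest in OVT73 2 in 8 of 9 classes, and in 7 of 9 with PSMC6 left out of the sum. The CPM values of this paragraph carry no library scaling. OVT73 2 also had the lowest scaling factor in all nuclei, 0.91 against 0.95 to 1.13 in the other libraries. Sums after scaling were not computed, so the low sums of OVT73 2 are not read as particular to the members.

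**Figure D4:**
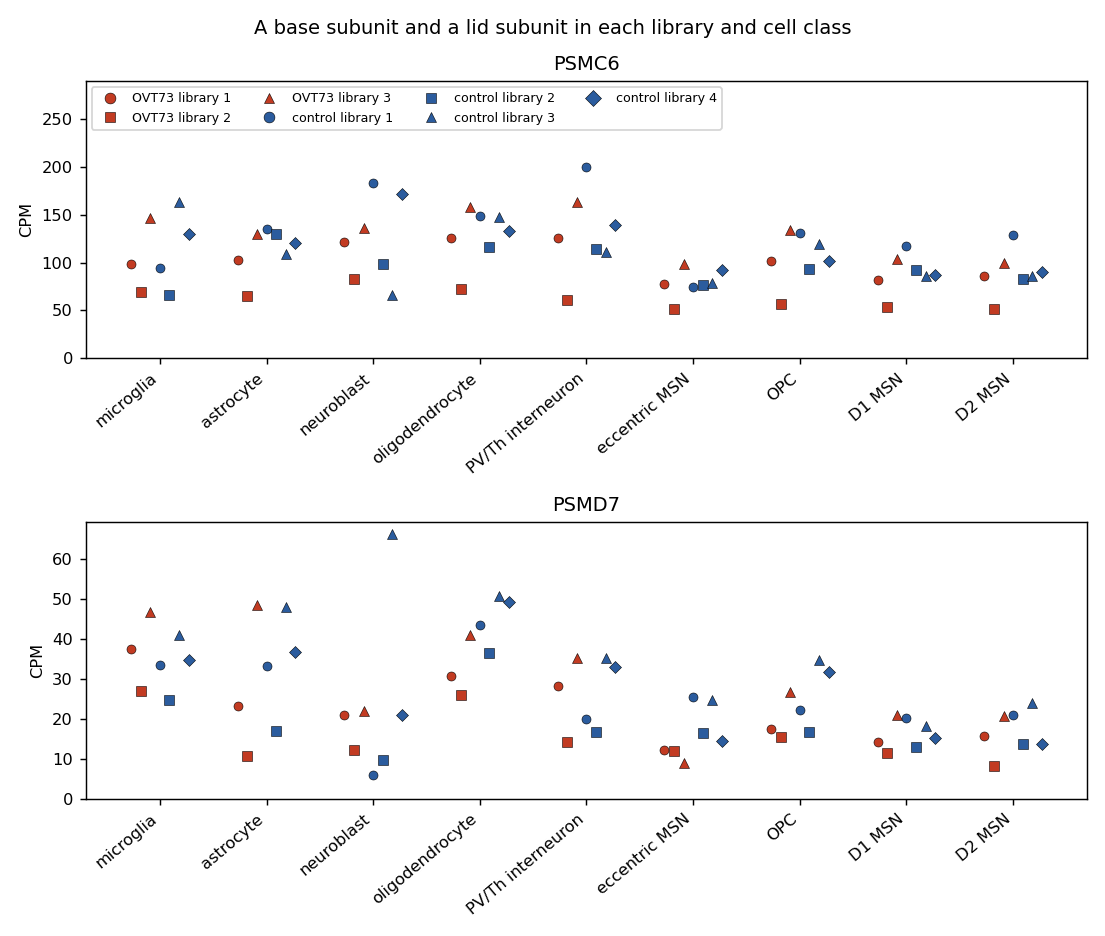
Levels in CPM (y axes) of PSMC6 and PSMD7 in 9 cell classes (x axes), 1 coloured point per library. OVT73 2 lies lowest in 7 of 9 classes for PSMC6 and in 6 of 9 for PSMD7.

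The comparison of OVT73 with control asks whether proteasome transcripts differed in the striatum of sheep with the transgene. No member passed the adjusted threshold of 0.05 in edgeR's quasi-likelihood test in any of the 9 classes or in all nuclei, and none did in DESeq2. Across all genes edgeR called 1 gene in OPCs (percent of genes tested 0.0111%), 1 in eccentric MSNs (0.0135%) and 0% in each of the other comparisons. At an unadjusted p under 0.05, edgeR had 1 of 38 members in all nuclei (5.39% of all genes), 3 of 36 in oligodendrocytes (5.20%), 2 of 32 in OPCs (6.75%) and 1 of 28 in microglia (4.22%). The counts were 0 of 29 in astrocytes (4.34% of all genes), 0 of 11 in neuroblasts (3.92%), 0 of 36 in D1 MSNs (3.58%), 1 of 36 in D2 MSNs (4.23%), 2 of 24 in eccentric MSNs (7.36%) and 1 of 31 in PV/Th interneurons (3.78%). These counts of 0 to 3 lay on both sides of the shares of all genes. The 95% interval of a member's log2 fold change reached a median of 0.33 to either side in all nuclei. It reached 0.43 in D1 MSNs and 0.64 in eccentric MSNs. Changes within those bounds could not be told from 0 for a typical member. The intervals are not adjusted for the number of genes tested, so larger changes could miss the adjusted threshold too.

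The median log2 fold change of the members was slightly below that of all genes in 8 of 9 classes. It was -0.08 in all nuclei, against -0.03 for all genes, and -0.09 against -0.03 in D1 MSNs, -0.04 against -0.02 in D2 MSNs and -0.06 against -0.02 in oligodendrocytes. It was -0.13 against -0.02 in OPCs, -0.15 against -0.03 in astrocytes, -0.13 against -0.01 in neuroblasts and -0.03 against -0.01 in PV/Th interneurons. Microglia were the exception with 0.02 for members and -0.01 for all genes. Eccentric MSNs had the lowest value, -0.16 against -0.01, with 20 of 24 members tested below 0 and 51.8% of all genes below 0. The members below 0 were 28 of 38 in all nuclei (55.9% of all genes), 22 of 36 in oligodendrocytes (53.6%), 21 of 32 in OPCs (52.5%), 11 of 28 in microglia (51.7%), 21 of 29 in astrocytes (54.0%) and 7 of 11 in neuroblasts (51.6%). They were 26 of 36 in D1 MSNs (54.8%), 19 of 36 in D2 MSNs (52.8%) and 18 of 31 in PV/Th interneurons (51.0%).

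The medians depended on single libraries and on the fit. The members' median was below that of all genes in 4 of 9 classes in DESeq2 and in 5 of 9 with no low-count filter, and in 6 of 9 without OVT73 2 or without control 1. Without OVT73 2 the members' median was -0.04 in all nuclei, -0.05 in OPCs, -0.10 in astrocytes and -0.12 in eccentric MSNs, and it turned positive in D2 MSNs (0.03) and PV/Th interneurons (0.07) and negative in microglia (-0.0056). Without control 1 it was 0.02 in D2 MSNs and 0.07 in PV/Th interneurons, without control 2 it was 0.01 in D2 MSNs, and without control 4 it was -0.0046 in microglia. In summed level, the mean of the OVT73 libraries was below that of the control libraries in 9 of 9 classes, and the groups overlapped in 9 of 9. These sums are CPM without the library scaling used in the fits. Without that scaling, 74.6% of all genes in all nuclei had a fitted change below 0, with a median of -0.15. The lower sums are therefore not read as particular to the members. The classes share libraries, so the 9 are not separate observations. In eccentric MSNs the sums were 1233, 1047 and 1279 CPM in OVT73 1 to 3 and 1401, 1338, 1395 and 1248 CPM in control 1 to 4. OVT73 3 exceeded control 4 there, and the class rests on 24 to 72 nuclei per library.

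Lists of other housekeeping and RNA quality genes had medians on both sides of 0, with no gene of them past the adjusted threshold in edgeR. The median log2 fold change of ribosomal protein genes was below 0 in 8 of 9 classes and 0.03 in neuroblasts. That of oxidative phosphorylation genes was below 0 in 8 of 9 classes and 0.0027 in PV/Th interneurons. Mitochondrial transcripts went the other way, with 10 of 11 above 0 in all nuclei (median 0.37), oligodendrocytes (0.63), OPCs (0.34), D1 MSNs (0.27) and D2 MSNs (0.38), and their median was above 0 in the remaining classes too, at its lowest in eccentric MSNs (0.0051). Their sum in all nuclei was 7670 to 8375 CPM in OVT73 and 4774 to 12239 CPM in control libraries, so the groups overlapped. In eccentric MSNs the ribosomal protein genes summed to 939 to 1239 CPM in OVT73 and 1323 to 2382 CPM in control libraries, and the oxidative phosphorylation genes to 1211 to 1413 CPM and 1500 to 2194 CPM, with no overlap in either. The median log2 fold change was -0.69 over 38 ribosomal genes and -0.42 over 52 oxidative phosphorylation genes in that class, both further from 0 than that of the members. In OPCs the oxidative phosphorylation sum was 1779 to 1877 CPM in OVT73 and 1997 to 2558 CPM in control libraries. Their part in the members' medians was not tested.

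**Figure D5:**
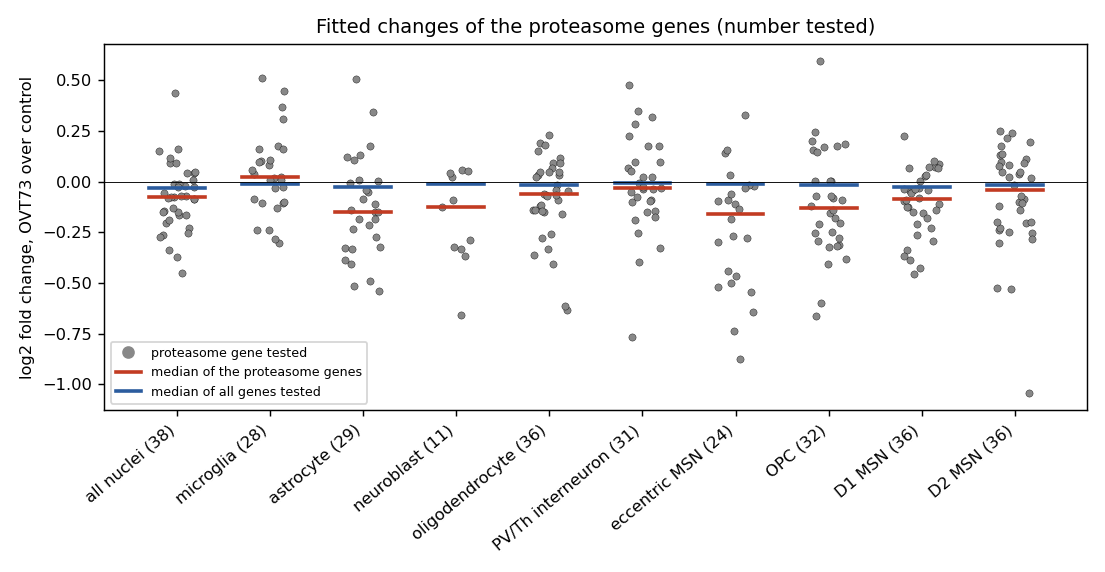
Log2 fold changes of OVT73 against control from edgeR (y axis) for each member tested, by cell class and for all nuclei (x axis), with the median of the members and the median of all genes marked. Points scatter on both sides of 0 in every class, and the members' median lies lowest in eccentric MSNs at -0.16.

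Single members with groups that did not overlap numbered 0 to 3 in each comparison. Their share stood furthest above that of all genes among lower members in eccentric MSNs (12.5% against 4.25%) and OPCs (9.38% against 3.40%) and among higher members in microglia (7.14% against 2.92%), and it was 0% in both directions in D1 MSNs, astrocytes and neuroblasts. None of these members passed the adjusted threshold, so these counts are descriptions. In all nuclei 2 of 38 members were lower in every OVT73 library than in every control library (3.28% of all genes) and 0 were higher (3.07%). The 2 were PSMA1, an alpha ring subunit, and PSMD3, a scaffold subunit of the lid. PSMA1 measured 14.3, 17.4 and 18.99 normalised CPM (CPM after library scaling) in OVT73 1 to 3 and 20.3, 21.7, 25.2 and 20.2 in control 1 to 4. Its log2 fold change was -0.37 (standard error 0.15, exact permutation p = 0.0286, two-sided, edgeR adjusted p = 0.832). With 3 against 4 libraries, 0.0286 is the smallest p that the 35 splits can give. Genes named because their groups do not overlap hold an extreme split by that choice. Their exact permutation p-values, here and below, restate the choice and add no support. PSMA1 was also lower without overlap in eccentric MSNs, at 10.9, 13.9 and 12.9 normalised CPM against 16.9, 17.9, 19.3 and 16.1.

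PSMD3 was the member lower without overlap in the most units, namely all nuclei, oligodendrocytes and D2 MSNs. In all nuclei it measured 6.33, 5.58 and 5.21 normalised CPM in OVT73 1 to 3 and 6.72, 6.67, 8.00 and 7.49 in control 1 to 4 (log2 fold change -0.34, SE 0.18, exact permutation p = 0.0286, edgeR adjusted p = 0.832). In oligodendrocytes it measured 7.25, 6.502 and 4.18 against 9.78, 7.98, 10.4 and 9.91 normalised CPM (log2 fold change -0.63, SE 0.26, exact permutation p = 0.0571, edgeR adjusted p = 0.886). In D2 MSNs it measured 5.23, 4.69 and 4.95 against 6.90, 6.25, 8.07 and 7.40 normalised CPM (log2 fold change -0.53, SE 0.23, exact permutation p = 0.0286, edgeR adjusted p = 0.941). The all-nuclei values contain both classes. Apart from D1 MSNs, where the groups overlapped, PSMD3 was too low to be tested in the remaining classes.

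In oligodendrocytes PSMA6 and PSMD1, a large scaffold subunit of the base, were higher in every OVT73 library, and PSMD3 was lower (2 and 1 of 36 members, against 3.41% and 3.20% of all genes). PSMA6 measured 270, 281 and 273 normalised CPM against 268, 236, 225 and 234, a log2 fold change of 0.19 (standard error 0.09, exact permutation p = 0.0571, edgeR adjusted p = 0.886). The gap between the lowest OVT73 and the highest control library was thus narrow. It was present only after library scaling. In the unscaled CPM of PSMA6 given above, control 1 exceeded OVT73 1 and OVT73 2, so the groups overlapped. In D2 MSNs PSMB2, a structural beta subunit, and PSMD11, a lid subunit, were higher without overlap and PSMD3 lower (2 and 1 of 36 members, against 3.32% and 2.56% of all genes). In D1 MSNs 0 of 36 members had groups that did not overlap in either direction (2.62% and 2.14% of all genes higher and lower).

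In eccentric MSNs PSMA1, PSMD6 and PSMD7 were lower without overlap (3 of 24 members, against 4.25% of all genes) and 0 were higher (3.44%). PSMD7 measured 12.8, 12.96 and 9.23 normalised CPM in OVT73 1 to 3 and 25.4, 16.8, 24.1 and 14.6 in control 1 to 4 (log2 fold change -0.74, SE 0.33, exact permutation p = 0.0571, edgeR adjusted p = 0.644). PSMD6, another lid subunit, measured 21.4, 18.5 and 11.1 against 23.3, 24.6, 30.5 and 21.9 normalised CPM. The member with the smallest p in this class was PSMD2, a base scaffold that docks shuttle proteins, at 9.98, 9.26 and 6.46 against 8.47, 19.05, 12.8 and 21.9 normalised CPM. Its log2 fold change was -0.87 (SE 0.38, edgeR adjusted p = 0.636) and control 1 lay among the OVT73 libraries.

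In OPCs PSMA4, PSMB1 and PSMD5 were lower without overlap (3 of 32 members, against 3.40% of all genes) and 0 were higher (4.25%). PSMD4, a ubiquitin receptor of the base, had the lowest fitted change there, -0.66 (SE 0.28, edgeR adjusted p = 0.722), with overlapping groups. In microglia PSMB1 and PSMD12 were higher without overlap (2 of 28 members, against 2.92% of all genes) and 0 were lower (2.72%). PSMD12, a lid subunit, measured 65.3, 77.3 and 74.0 normalised CPM in OVT73 1 to 3 and 56.9, 49.6, 52.9 and 51.5 in control 1 to 4 (log2 fold change 0.45, SE 0.21, exact permutation p = 0.0286, edgeR adjusted p = 0.998). In astrocytes PSMD12 had the opposite sign, -0.41 (SE 0.25), with overlapping groups, so no direction of PSMD12 held over the glial classes.

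In PV/Th interneurons PSMA3, an alpha ring subunit, was higher without overlap (1 of 31 members, against 2.81% of all genes) and 0 were lower (2.25%). It measured 55.5, 73.7 and 51.1 normalised CPM in OVT73 1 to 3 and 37.0, 46.4, 47.2 and 43.7 in control 1 to 4 (log2 fold change 0.48, SE 0.21, exact permutation p = 0.0286, edgeR adjusted p = 1.000). None of the 29 members tested in astrocytes (2.50% of all genes higher, 2.63% lower) or the 11 tested in neuroblasts (2.66% and 2.24%) had groups that did not overlap.

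The cutting subunits did not separate the groups. In all nuclei the log2 fold change was -0.08 (SE 0.17) for PSMB5, -0.25 (SE 0.19) for PSMB6 and 0.12 (SE 0.10) for PSMB7, with 95% intervals of -0.45 to 0.29, -0.67 to 0.16 and -0.09 to 0.33. PSMB10 was at -0.17 (SE 0.29), and 2.37, 4.92 and 2.59 normalised CPM in OVT73 1 to 3 enclosed the control range of 3.26 to 4.57. PSMB8 was at 0.44 (SE 0.53), with an interval of -0.73 to 1.60, and control 3 at 1.38 normalised CPM exceeded every OVT73 library. PSMB8 was too low to be tested within any class. Within classes PSMB10 could be tested only in D2 MSNs (log2 fold change -1.04, from 89 UMIs), D1 MSNs (0.07) and oligodendrocytes (-0.02), with overlapping groups in each. The D2 MSN value was the lowest of any member in that class.

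Genes of the pathway that carry no PSM subunit name were read from 7 lists, namely SEM1 and ADRM1, core assembly chaperones, proteasome regulators, factors of proteasome gene transcription, ubiquitin genes, shuttle factors, and interferon response genes. Of 55 such genes tested in all nuclei, 0 rose and 0 fell at the adjusted threshold, and the same counts of 0 held in each class with 21 to 45 tested. In edgeR 5 of 30 had an unadjusted p under 0.05 in eccentric MSNs (7.36% of all genes), 3 of 35 in PV/Th interneurons (3.78%) and 2 of 41 in microglia (4.22%). The counts were 1 of 44 in D1 MSNs (3.58%), 1 of 42 in OPCs (6.75%) and 1 of 44 in oligodendrocytes (5.20%), and 0 of 55 in all nuclei (5.39%), 0 of 45 in D2 MSNs (4.23%), 0 of 37 in astrocytes (4.34%) and 0 of 21 in neuroblasts (3.92%).

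Among regulators, ECPAS, an adaptor bound to the proteasome, measured 204, 191 and 196 normalised CPM in OVT73 1 to 3 and 140, 153, 153 and 169 in control 1 to 4 in oligodendrocytes. Its groups did not overlap (log2 fold change 0.36, SE 0.10, exact permutation p = 0.0286, edgeR adjusted p = 0.816). UBE3C, a ubiquitin ligase bound to the proteasome, likewise did not overlap in PV/Th interneurons, at 162, 160 and 153 against 117, 116, 135 and 140 normalised CPM (log2 fold change 0.32, SE 0.14, edgeR adjusted p = 1.000). SEM1, a small lid subunit, was lower without overlap in OPCs (-0.41, SE 0.18, edgeR adjusted p = 0.722) and higher without overlap in neuroblasts (0.66, SE 0.33, edgeR adjusted p = 1.000). Of all genes, 3.41% were higher without overlap in oligodendrocytes, 2.81% in PV/Th interneurons and 2.66% in neuroblasts, and 3.40% were lower in OPCs. Pathway genes without overlap were not counted here, so these cases are descriptions.

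MX1, an antiviral gene of the interferon response, measured 51.4, 24.04 and 22.3 normalised CPM in OVT73 1 to 3 and 2.85, 6.47, 21.1 and 19.6 in control 1 to 4 in microglia (log2 fold change 1.43, SE 0.51, exact permutation p = 0.0571, edgeR adjusted p = 0.998). NFE2L1, the factor that raises proteasome genes when the proteasome is inhibited, was at -1.16 (SE 0.51, edgeR adjusted p = 0.979) in D1 MSNs, at 0.950 to 2.21 normalised CPM in OVT73 and 1.75 to 6.44 in control libraries, with overlap.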

How the data were processed

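Nuclei were isolated from frozen striatum and sequenced with the Chromium 3′ v3.1 chemistry. The deposited files hold raw UMI counts per gene and barcode, which the authors made with Cell Ranger 7.0.0 and STAR 2.7.2a against Oar_rambouillet_v1.0 (Ensembl 107), 1 filtered matrix per library. Groups were read from the HD and HC prefixes of the titles, which the study's methods tie to OVT73 and control. The proteasome genes, the gene lists and the tests were chosen with earlier results of these data known.

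From 35272 barcodes, nuclei with 200 to 7500 genes and at most 5% mitochondrial UMIs were kept. The 4% with the highest scrublet scores in each library were removed as doublets, because the automatic threshold marked as few as 3 of 4185 nuclei in a library. The 3000 variable genes, without members, were picked with scanpy 1.11.5. Their 30 components were corrected for differences between libraries with a Harmony procedure. Nuclei were then clustered by the Louvain method in igraph 0.11.9 (20 neighbours, resolution 1), and clusters were named from marker lists. Counts were summed per library and class, and CPM is a count per 1000000 UMIs of that class and library. OVT73 was compared with control in edgeR 4.0.16 (R 4.3.3; filterByExpr, TMM scaling, quasi-likelihood F-test, Benjamini-Hochberg adjustment over all genes tested), two-sided, after a check on simulated data. Exact permutation p-values used the difference in mean normalised CPM over the 35 splits of 7 libraries. Median depth was 1860 to 2562 UMIs per nucleus, so members with few counts could not be tested in small classes.

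Values per library are given for catalytic subunits, the member with the smallest p in each direction per class, the 5 members with the largest ratio between class means among those with at least 100 UMIs in the highest class, members without overlap in at least 2 classes, pathway genes with the smallest p per class, and other genes that were named after their values were seen. Some results that this rule selects are not reported here. Alternatives were no TMM factors, DESeq2 1.42.0, no low-count filter, equal UMIs per library, doublets kept, another total for CPM, and leaving out each library. SST/NPY interneurons, cholinergic interneurons and macrophages had under 10 nuclei in a library and were not tested. Gene neighbours came from RefSeq, and no sequence is given.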

Additional observations from a re-analysis of the deposited data

Results flagged for a closer look

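In 5 of 57 groups of 4 control libraries examined for named genes, 1 library stood far from the other 3, where chance gives about 1 in 20. The measure is the gap from the extreme library to its nearest neighbour divided by the range of the group. It was 0.968 for PSMB8 in all nuclei (control 3 at 1.38 normalised CPM, the others at 0.315 to 0.349), 0.952 for PSMB2 in eccentric MSNs (control 1 at 67.7, the others at 27.3 to 29.2) and 0.882 for PSMB1 in OPCs (control 1 at 52.5, the others at 46.1 to 46.9). It was 0.863 for UBQLN2, a ubiquitin shuttle, in D2 MSNs (control 2 at 0.569, the others at 2.49 to 2.80) and 0.842 for PSME4 in OPCs (control 2 at 128, the others at 101 to 105).

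PSMB1, a structural beta subunit, had fitted changes of opposite sign in 2 classes. In microglia it measured 85.7, 73.8 and 75.4 normalised CPM in OVT73 1 to 3 and 56.9, 66.9, 68.7 and 61.3 in control 1 to 4. In OPCs it measured 45.9, 44.1 and 45.7 against 52.5, 46.9, 46.1 and 46.5. Every OVT73 library was above every control library in microglia and below in OPCs. The difference between the 2 log2 changes was 0.39 (exact permutation p = 0.0571, two-sided, over 35 splits), so it did not pass 0.05. PSMB1 and these 2 classes were picked for their opposite directions in the same libraries. The p therefore restates that choice and is no independent test.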

How the results depend on the processing

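No member passed the adjusted threshold under any alternative. Of the 438 values computed under alternatives for the summed levels, the members' medians and the counts of members and pathway genes called, 435 stayed within the spread between libraries or, for counts of genes, within 1.5 times the main count. Among the other values followed under alternatives, 789 kept to such bounds, 35 moved past them and 7 turned sign. The main counts of members and pathway genes called were 0, and a median that changed sign within the spread between libraries was counted as staying. The 435 are therefore no measure of how stable the direction of the medians was. The members' median lay below that of all genes in 8 of 9 classes in the main fits. It did so in 4 of 9 in DESeq2 and 5 of 9 with no low-count filter. Medians near 0 changed sign within the spread between libraries. The members' median was 0.00017 in D2 MSNs with DESeq2, 0.04 in D2 MSNs and 0.01 in PV/Th interneurons with no low-count filter, and 0.05 in PV/Th interneurons and -0.03 in microglia with equal UMIs per library. With no low-count filter the members' median log2 fold change in microglia was 0.086, and 1 pathway gene was called in eccentric MSNs (RPS27A, which encodes ubiquitin fused to a ribosomal protein, log2 fold change -0.86, edgeR adjusted p = 0.0460). With doublets kept the members' median in neuroblasts was -0.32. Without TMM factors the median of all genes moved to -0.15 in all nuclei and -0.12 in D1 MSNs, and changes should be read relative to that shift. Counts of all genes called rose under DESeq2 (14 in all nuclei, 9 in OPCs, 6 in oligodendrocytes, 3 each in D1 and D2 MSNs) and with no low-count filter (60 in eccentric MSNs, 34 in microglia, 32 in OPCs, 32 in PV/Th interneurons, 9 in astrocytes, 4 in neuroblasts, 1 each in oligodendrocytes and D2 MSNs). Without TMM factors they were 2 in OPCs and 0 in eccentric MSNs, and with 1 library left out 0 to 2 in OPCs (2 without control 1) and 0 in eccentric MSNs, with 1 gene each in oligodendrocytes (without control 1), microglia (without control 4) and neuroblasts (without OVT73 1).

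PSMB2 in eccentric MSNs turned to -0.021 with equal UMIs per library. With 1 library left out, the log2 fold change ranged from -0.57 to 0.033 for PSMB10 (all nuclei, sign turned without OVT73 1), from -0.14 to 0.026 for PSMB5 (all nuclei, without OVT73 2 or control 1) and from -0.13 to 0.21 for PSMB7 (neuroblasts, without OVT73 2, control 2 or control 4). The cause was not tested in any of these. No paired analysis was possible because replicate numbers were given in accession order and no label links libraries across groups. Pools of 2 sheep, 3 against 4 libraries and shallow nuclei of glial classes limit what could be detected.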
